A study of Mus musculus with 24 samples.

Results

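The libraries described here are the 6 Restored + CsA libraries of a series of 24, each made from 1 mouse small cell lung cancer (SCLC) line in which p53 had been switched back on in the presence of cyclosporin A (CsA). They were chosen by their labels alone, as all libraries that had received both treatments. Lines 4711-1, 4711-18 and 4716-11 are Type D, the class the study named for its loss of viability once p53 returns. The other lines, 4711-11, 4716-10 and 4716-14, are Type V, the class that stays viable and stops dividing. In this order the lines are replicates 1, 2 and 3 of their type. The comparison asks how the 2 types differ when p53 and the drug are present together.

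All 6 lines were grown, before any restoration, from individual tumors of RP(XTR)R2 mice, in which Rb1 and Rbl2 are deleted by an adenovirus that expresses Cre from the CMV promoter. Trp53, the gene of p53, is held off in them by the XTR gene trap. A FlpO-ERT2 recombinase expressed from Rosa26 removes the trap when 4-hydroxytamoxifen (4-OHT) is given, and this is the step called Restored. Control cells received the ethanol vehicle in place of 4-OHT, and Control + CsA and Restored + CsA cells also received CsA. All libraries were taken 72 h after treatment. Each line gave 1 library in each of the 4 states, so 6 lines stand behind the whole series, and each type in each state rests on 3 lines. The values are TPM, a measure of transcript abundance scaled by gene length and by the total of the library. Differences between types are given on the scale of log2(TPM + 1), where 1 unit is a doubling for an abundant gene and the change of a scarce gene is understated. How deeply each library was sequenced cannot be read from TPM.

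As background, p53 is a transcription factor that induces genes of cell cycle arrest, DNA repair and cell death. CsA binds cyclophilins, a family of prolyl isomerases, and the complex of CsA with cyclophilin A inhibits the phosphatase calcineurin. SCLC is a tumor of neuroendocrine character that usually lacks both RB and p53, and its subtypes are named for transcription regulators, among them NEUROD1, POU2F3 and YAP1.

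Trp53 itself was at 215, 206 and 233 TPM in the Type D lines and at 182, 208 and 215 TPM in the Type V lines with restoration and CsA. The 2 types overlapped, and their difference of 0.11 log2 did not pass an exact permutation test over the 6 lines (two-sided p = 0.5, where 0.1 is the smallest p that 3 against 3 can give). In the Control libraries of the same lines Trp53 lay between 10.7 and 14.8 TPM. Rb1 (−0.62 log2) and Rbl2 (−0.96 log2) were both lower in Type D with exact permutation p = 0.1 each, and reads outside the deleted exons can still be counted for these genes. Some markers of the labelled tumor type were looked up, which does not test the label. The SCLC subtype factors Neurod1 and Pou2f3 were both below 1 TPM in all 6 libraries, and Calca, a neuropeptide gene of pulmonary neuroendocrine cells, was listed at 0 throughout. Of 21 neuroendocrine genes, 7 were abundant enough to test. Uchl1 was called lower in Type D, at 8.33, 5.74 and 3.12 TPM in Type V and at most 0.393 TPM in Type D. Insm1 was also higher in every Type V line than in every Type D line, but was not called. Yap1, another subtype gene, was at 106, 112 and 97.7 TPM in Type D and 183, 524 and 116 TPM in Type V (difference −1.08 log2, adjusted p = 0.271).

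With p53 restored and CsA present, the genes called higher in Type D included some keratins, claudins, and foregut and gut transcription factors. The genes called lower in Type D included some matrix, interferon response and antigen presentation genes. Of 14104 genes tested, 301 were called higher in Type D (2.13%) and 297 were called lower (2.11%), 598 in all (4.24%). A gene was called when the Benjamini-Hochberg adjusted p of limma, a linear model fitted across all genes, was under 0.05 and the difference was at least 1 log2. The lowest line of one type exceeded the highest line of the other for 4238 genes (30.0%), of which 2058 were higher in Type D and 2180 higher in Type V. All 598 called genes were among them. The median difference over all genes was −0.05 log2.

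The spread between lines was not the same in both types. Over the tested genes the Restored + CsA libraries correlated with r of 0.951 to 0.978 within Type D, 0.891 to 0.933 within Type V and 0.854 to 0.898 between types. The median SD of a gene was 0.234 log2 in Type D and 0.345 log2 in Type V. Leaving out 1 line changed the number of calls by more than 1.5 times for 5 of the 6 lines, to 77 without 4711-1, 314 without 4711-18, 112 without 4716-11, 963 without 4716-10 and 206 without 4716-14. Without 4711-11 it was 451. Of the 110 called genes that the rule for naming genes selected, 24 were called under every one of these leave-outs, and 0 changed direction. Abcb1b, Ccnd1, Foxa1, Isg15, Lfng, Tgfb3, Tnfrsf23 and Wwc1 were called under none of them.

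**Figure D1:**
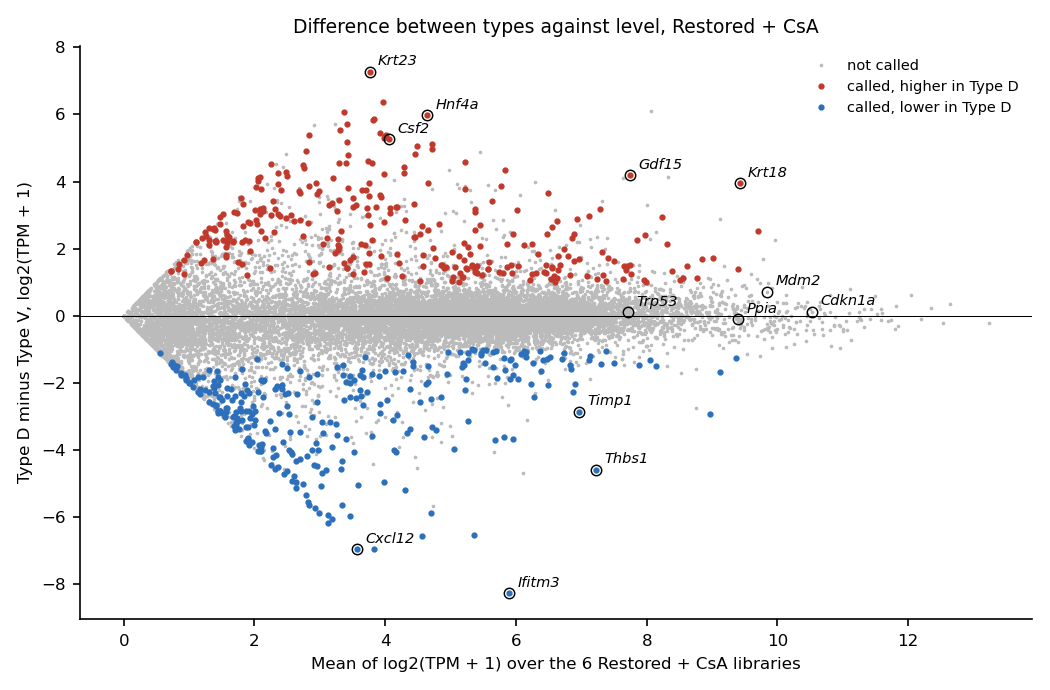
Each point is 1 of 14104 genes, plotted by its mean level over the 6 Restored + CsA libraries (x axis, log2(TPM + 1)) and by the Type D minus Type V difference (y axis, log2(TPM + 1)), with the 301 genes called higher in Type D in red, the 297 called lower in blue and the rest in gray. Krt23 and Ifitm3 stand at the ends of the range. Trp53, Cdkn1a and Ppia lie near 0, and Mdm2, not called, lies somewhat above it.

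Among the 10 largest differences toward Type D was Krt23, a keratin of intermediate filaments, at 296, 45.1 and 351 TPM in Type D and at 0, 0.106 and 0.165 TPM in Type V. Every Type D library was above every Type V library, and the difference was 7.28 log2 (SE 0.76, adjusted p = 0.00876). Line 4711-18 was the lowest of the Type D lines, and the call was lost without 4711-1 (adjusted p = 0.0576). S100a14, which encodes an EF-hand protein, was at 138, 167 and 122 TPM against 0.34, 1.89 and 0.314 TPM (6.37 log2, SE 0.36, adjusted p = 0.00134). Gcnt3, which encodes a glycosyltransferase of mucin O-glycans, was at 109, 83.1 and 64.6 TPM against 0, 0.798 and 0.0886 TPM (6.08 log2). For both genes 4716-10 was the highest Type V line, and both were called under every leave-out.

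Hnf4a, a nuclear receptor of intestinal and hepatic epithelium, was nearly equal in the Type D lines at 203, 201 and 190 TPM. Among Type V lines it was at 0.0864 and 0.213 TPM in 4711-11 and 4716-14 and at 22.6 TPM in 4716-10. The difference was 5.98 log2 (SE 1.15, adjusted p = 0.0413). It was 7.44 log2 and still called without 4716-10, and it was not called without any of the other 5 lines, where it was as low as 5.22 log2. Cldn2, a pore-forming claudin of tight junctions, was at 111, 61.9 and 171 TPM against 0.0672, 1.97 and 1.04 TPM (5.84 log2, adjusted p = 0.00537). The remaining genes of this group were Myrf, a membrane-bound transcription factor (5.85 log2), Fermt1, which encodes the integrin activator kindlin-1 (5.71 log2), the hydrolase gene Cmbl (5.44 log2), Aldh1a3, a retinaldehyde dehydrogenase (5.38 log2), and Tigit. Tigit encodes an inhibitory receptor best known from T and NK cells, and it was at 55.9, 45.1 and 116 TPM in Type D and 0.215, 0.851 and 0.397 TPM in Type V (5.52 log2, adjusted p = 0.00344). The pan-leukocyte gene Ptprc was at most 0.0392 TPM in the same libraries.

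**Figure D2:**
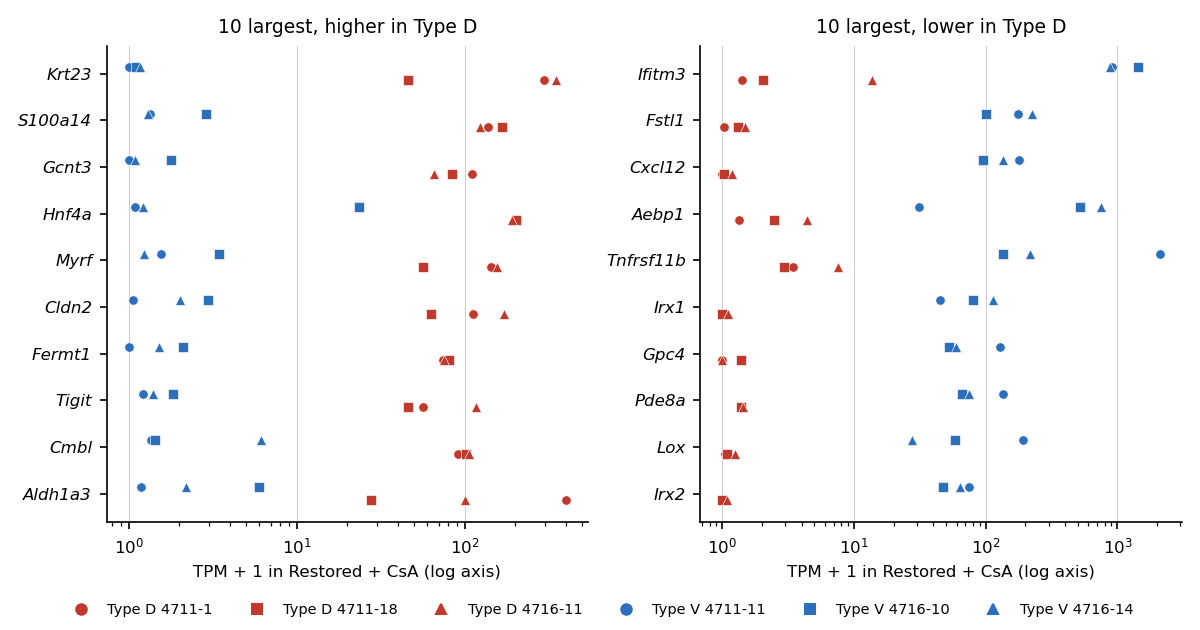
TPM + 1 (x axis, log scale) of the 10 genes with the largest called difference in each direction (y axis), with 1 symbol per Restored + CsA library, red for Type D lines and blue for Type V lines. The genes were chosen to have no overlap between red and blue symbols. Hnf4a in 4716-10 (22.6 TPM) and Ifitm3 in 4716-11 (12.8 TPM) stand apart from the other lines of their type.

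The promoters of 3 of these genes are shown because they moved together toward Type D and hold letters of known regulatory motifs. The sequences are from RefSeq on GRCm38.p6, run from 250 bases before to 50 bases after an annotated start, and are written 5′ to 3′ on the strand of the gene. The Krt23 window is chr11:99493071-99493370 on the minus strand, the Hnf4a window is chr2:163546905-163547204 on the plus strand, and the Cldn2 window is chrX:139800558-139800857 on the plus strand. Capitals mark matches on either strand to CAGGTG, the E-box bound by SNAI and ZEB repressors, to GGAATG, the core of a TEAD site, or to CAAAGNNCA, a part of an HNF4 site.
Krt23 promoter: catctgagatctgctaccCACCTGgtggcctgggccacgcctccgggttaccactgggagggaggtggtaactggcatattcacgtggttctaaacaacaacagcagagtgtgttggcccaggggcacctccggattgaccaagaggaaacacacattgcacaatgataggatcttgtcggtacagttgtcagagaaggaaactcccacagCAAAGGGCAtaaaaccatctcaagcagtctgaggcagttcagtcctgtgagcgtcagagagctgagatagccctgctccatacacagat
Hnf4a promoter: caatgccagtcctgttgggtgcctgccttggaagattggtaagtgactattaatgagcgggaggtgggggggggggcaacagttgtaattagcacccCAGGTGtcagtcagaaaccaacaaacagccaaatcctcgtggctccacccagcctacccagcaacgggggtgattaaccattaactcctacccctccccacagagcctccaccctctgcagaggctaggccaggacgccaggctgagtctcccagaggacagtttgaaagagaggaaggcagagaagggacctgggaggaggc
Cldn2 promoter: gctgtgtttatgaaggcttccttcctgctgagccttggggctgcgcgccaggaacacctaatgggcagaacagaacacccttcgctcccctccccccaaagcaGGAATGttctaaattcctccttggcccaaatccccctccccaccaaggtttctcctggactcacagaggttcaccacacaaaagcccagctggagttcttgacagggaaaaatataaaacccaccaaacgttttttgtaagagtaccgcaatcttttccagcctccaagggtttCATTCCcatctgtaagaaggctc
Krt23 held an E-box 232 bases before its start and the HNF4 letters 39 bases before it, Hnf4a held an E-box 153 bases before its start, and Cldn2 held TEAD letters 147 bases before and 27 bases after its start. A second Hnf4a window held none of the 3 motifs. Among genes not shown, TEAD letters stood in Cmbl, higher in Type D, and in Gpc4, lower in it. HNF4 letters stood in Aebp1, lower in Type D, and E-boxes in Epcam. The windows of Fermt1 and Tigit, higher in Type D, held none. Nor did those of Cxcl12, Fstl1, Ifitm3, Irx2 and Pde8a, lower in it. A link of the letters to the difference between types was not tested. Among 13749 windows of the tested genes, 18.3% held the E-box, 12.3% the TEAD core and 5.03% the HNF4 letters. A window was at hand for 76.9% of the tested genes, 73.8% of those called higher and 75.8% of those called lower, which is too few to compare the groups.

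For this and the following lists, the share called stands beside 4.24% of all tested genes, 2.13% higher and 2.11% lower. The lists were chosen with earlier results of these data known, so their shares are descriptive and not independent evidence. Of 25 tested genes of epithelial adhesion and polarity, 8 were called higher in Type D (32%) and 0 lower, with a median of 1.43 log2. Besides Cldn2 these included Cdh17, a cadherin of intestinal epithelium, at 23.8, 51.0 and 24.3 TPM against 0.538, 0.521 and 0.184 TPM (4.51 log2, adjusted p = 0.00457). Lsr, a tricellular junction receptor, differed by 3.65 log2, the claudin Cldn3 by 3.33 log2, the desmosomal gene Dsp by 3.25 log2 and the tight junction gene Ocln by 2.72 log2. Cdh1, which encodes E-cadherin, was not called (1.03 log2, adjusted p = 0.353), at 705, 363 and 456 TPM in Type D and 572, 225 and 105 TPM in Type V. The Type V line 4711-11 thus lay within the range of the Type D lines. Epcam, an epithelial adhesion molecule, stood at 1.08 TPM or less in all 6 libraries.

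Of 14 tested keratins, 2 were called higher (14.3%), Krt23 and Krt18, and 0 lower, with a median of 1.73 log2. Krt18, a keratin of simple epithelia, was at 3242, 2360 and 2589 TPM in Type D and 49.4, 312 and 330 TPM in Type V (3.96 log2, adjusted p = 0.0359). Its partner Krt8 was separated as well, at 2665, 1991 and 2037 TPM against 0.688, 287 and 68.5 TPM, but the spread among Type V lines left it uncalled (6.10 log2, adjusted p = 0.105). Vim, the intermediate filament gene of mesenchymal cells, was high in both types, at 4111, 2738 and 3164 TPM in Type D and 2848, 4624 and 5178 TPM in Type V (−0.31 log2, adjusted p = 0.645).

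Foregut and gut transcription factors gave 5 calls toward Type D and 1 toward Type V among 21 tested (28.6%), with a median of 1.03 log2. Gata6 was at 53.4, 76.9 and 53.7 TPM against 20.8, 21.1 and 24.5 TPM (1.41 log2, adjusted p = 0.018). Foxa1, a pioneer factor of endodermal tissues, differed by 1.38 log2, Hhex by 1.80 log2 and Onecut2 by 2.10 log2. Sox2, a factor of the anterior foregut and of airway progenitors, went the other way, at 1.75, 0.896 and 0 TPM in Type D and 46.5, 16.2 and 89.3 TPM in Type V (−4.60 log2, adjusted p = 0.0195). Of 23 tested genes of digestive epithelium, 6 were called higher in Type D (26.1%), 0 lower, and the median was 2.2 log2. They were Ctse, a gastric aspartic protease (5.31 log2), Clca3b (4.57 log2), Pls1, an actin bundler of microvilli (4.56 log2), Lgals2 (4.44 log2), Apob, the apolipoprotein of chylomicrons (3.77 log2), and Vsig1 (2.2 log2). Of these, Apob was called under every leave-out.

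Of 25 tested integrins and laminins, 4 were called higher in Type D (16%) and 0 lower. The list as a whole was divided, with 13 positive differences and a median of 0.12 log2. Itga2, a collagen and laminin receptor subunit, was at 123, 178 and 143 TPM against 0.553, 7.24 and 7.21 TPM (4.96 log2, adjusted p = 0.0148). The integrin gene Itga6 differed by 2.66 log2 and the laminin gene Lama5 by 1.11 log2.

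In the other direction, Ifitm3, an interferon-induced membrane protein that restricts viral entry, was at 0.417, 1.03 and 12.8 TPM in Type D and at 909, 1421 and 882 TPM in Type V. The difference of −8.26 log2 (SE 0.82, adjusted p = 0.00719) was the largest in size among the genes followed here, and it was called under every leave-out. Cxcl12, the chemokine ligand of CXCR4, was at 0, 0.022 and 0.178 TPM against 178, 94.0 and 135 TPM (−6.96 log2, SE 0.29, adjusted p = 0.00113). Fstl1, a secreted glycoprotein, was at 0.0374, 0.307 and 0.497 TPM against 175, 99.5 and 222 TPM (−6.96 log2, adjusted p = 0.00114). For both genes every Type V line was far above every Type D line, and both were called under every leave-out. Tnfrsf11b, which encodes the decoy receptor osteoprotegerin, was much higher in 4711-11 than in the other Type V lines, at 2108 TPM against 134 and 217 TPM, with 2.44, 1.96 and 6.51 TPM in Type D (−6.54 log2, adjusted p = 0.0239). Aebp1, a matrix protein, was lowest among Type V lines in 4711-11, at 30.2 TPM against 520 and 746 TPM (−6.57 log2). The homeobox genes Irx1 (−6.16 log2) and Irx2 (−5.89 log2), the glypican Gpc4 (−6.05 log2), the cyclic AMP phosphodiesterase Pde8a (−5.96 log2) and Lox, which crosslinks collagen (−5.92 log2), completed the 10 largest.

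Of 24 tested mesenchymal genes 0 were called higher and 6 lower in Type D (25%), with a median of −1.14 log2 and 5 positive differences. Of 25 tested collagens 0 were called higher and 6 lower (24%), with a median of −1.56 log2 and 5 positive differences. Col1a2, a chain of type I collagen, was listed at 0 in all 3 Type D libraries and at 7.57, 8.56 and 13.1 TPM in Type V (adjusted p = 0.00527). Dcn, the proteoglycan decorin, was likewise listed at 0 in Type D and was at 24.5, 24.4 and 3.52 TPM in Type V (adjusted p = 0.0349). Col4a5, a basement membrane collagen, was at 8.95, 22.0 and 17.5 TPM against 255, 133 and 222 TPM (−3.60 log2, adjusted p = 0.00876). Col12a1 differed by −5.07 log2, Col6a2 by −4.96 log2, Col16a1 by −4.17 log2 and Col4a6 by −4.12 log2. Thbs1, the matricellular protein thrombospondin 1, was at 12.2, 36.6 and 56.0 TPM against 1595, 224 and 1086 TPM (−4.59 log2, adjusted p = 0.037).

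Col1a2 and Dcn are also markers of fibroblasts, and bulk RNA cannot tell fewer cells of a kind from less RNA per cell. Of 10 fibroblast markers, 6 could be tested, 2 were called lower in Type D, and the median was −3.39 log2. Their summed level was 0.304 to 1.19 TPM in Type D and 75.6 to 130 TPM in Type V. In both types Thy1 was at 0 and Pdgfra was at 0.486 TPM or less, and the part of such cells in the matrix genes was not tested. Summed immune markers, 10 in all, were at 28.7 to 45.1 TPM in Type D and 21.2 to 31.0 TPM in Type V, most of it Cd68 at 20.9 to 43.4 TPM. Endothelial markers summed to at most 4.29 TPM and markers of normal lung epithelium to at most 11.3 TPM in any of the 6 libraries.

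Differences were negative for all 11 tested transcription factors of epithelial to mesenchymal transition, with a median of −1.37 log2, but 1 was called, Foxc1, at 1.79, 1.99 and 1.62 TPM against 11.4, 12.4 and 15.4 TPM (−2.32 log2, adjusted p = 0.00876). Snai2 was at 38.6, 13.6 and 27.8 TPM against 185, 58.3 and 95.4 TPM (−2.0 log2, adjusted p = 0.0823). Zeb1 was at 16.4, 14.4 and 22.9 TPM against 32.4, 46.5 and 35.7 TPM (−1.06 log2, adjusted p = 0.0638). The lines of the 2 types did not overlap for either repressor, yet neither passed the test over all genes.

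Of 26 tested interferon response genes 0 were called higher and 5 lower (19.2%), with a median of −0.84 log2. Of 14 tested antigen presentation genes 0 were called higher and 4 lower (28.6%), with a median of −1.43 log2. Besides Ifitm3, the interferon genes called were Gbp2, a guanylate-binding GTPase (−2.70 log2), the DNA sensor Cgas (−2.27 log2), the ubiquitin-like Isg15 (−2.06 log2) and Xaf1 (−1.62 log2). Cgas was at 1.79, 0.606 and 0.511 TPM in Type D and 9.85, 5.86 and 9.21 TPM in Type V. B2m, the invariant chain of MHC class I, was at 322, 248 and 374 TPM against 885, 812 and 1369 TPM (−1.68 log2, adjusted p = 0.025). The peptide transporter genes Tap1 (−1.25 log2) and Tap2 (−2.28 log2) and the loading factor Tapbp (−2.43 log2) were called as well. H2-D1, a class I heavy chain, was instead at 252, 254 and 294 TPM in Type D and 156, 85.1 and 141 TPM in Type V (1.10 log2, adjusted p = 0.0604).

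**Figure D3:**
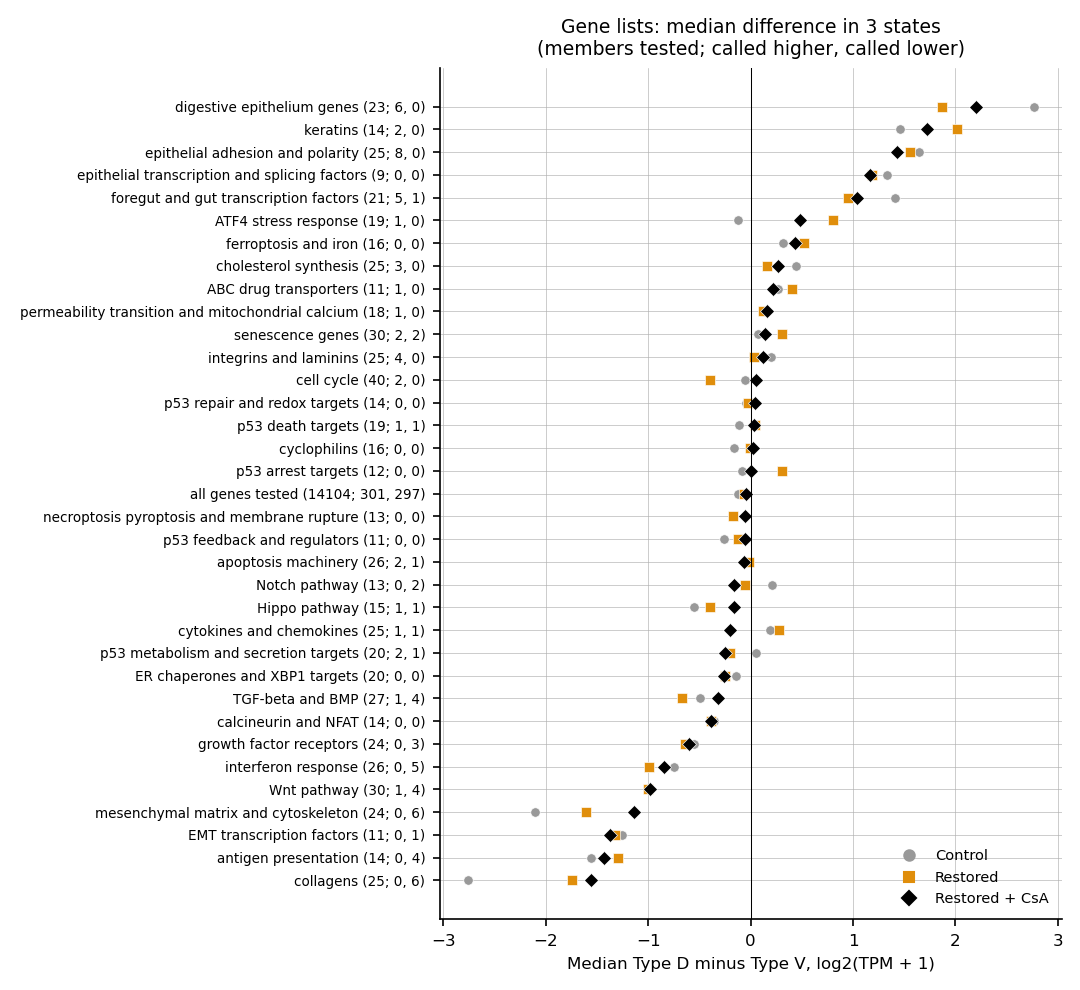
Median Type D minus Type V difference (x axis, log2(TPM + 1)) over the tested members of each gene list (y axis) in the Control, Restored and Restored + CsA libraries. Numbers in brackets give the members tested and those called higher and lower in Type D in Restored + CsA. Digestive genes stand at 2.2 log2 and collagens at −1.56 log2 in Restored + CsA, and the 5 lists of p53 targets and regulators lie between −0.25 and 0.05 log2. Lists with fewer than 9 tested members are left out.

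Wnt pathway genes gave 1 call higher and 4 lower in Type D among 30 tested (16.7%), with a median of −0.98 log2. Wnt7a, a ligand, was at 69.1, 73.7 and 57.7 TPM in Type D and 0.0629, 1.95 and 6.52 TPM in Type V (4.56 log2, adjusted p = 0.0196). The ligand gene Wnt4 (−4.46 log2), the receptors Fzd8 (−3.03 log2) and Fzd1 (−2.57 log2) and the regulator Dact2 (−3.50 log2) were higher in Type V. Among 27 tested genes of TGF-beta and BMP signaling, 1 was called higher and 4 lower (18.5%). These 4 were Fst, which binds activin (−5.19 log2), the co-receptor Tgfbr3 (−4.72 log2) and the ligands Tgfb2 (−3.99 log2) and Tgfb3 (−2.62 log2). Of 24 tested growth factor receptors, 3 were called lower in Type D (12.5%) and 0 higher. Fgfr1 was at 1.06, 0.564 and 0.307 TPM against 25.1, 80.5 and 32.9 TPM (−4.69 log2, adjusted p = 0.00719), and Fgfr2 (−4.61 log2) and Nrp1 (−2.04 log2) were the others. Notch3 (−3.61 log2) and Lfng (−1.64 log2) were the 2 calls among 13 Notch pathway genes (15.4%). In the Hippo pathway Vgll3, a cofactor of TEAD proteins (−3.72 log2), and Wwc1 (1.14 log2) were called among 15 genes (13.3%).

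By limma there were 0 calls in either direction among 11 feedback regulators, 12 arrest targets and 14 repair and redox targets of p53, against 4.24% of all genes, with medians of −0.06, 0.0047 and 0.05 log2. At an unadjusted p under 0.05 there were 3, 4 and 1. Cdkn1a, which encodes the p21 inhibitor of cyclin-dependent kinases, was at 1271, 2082 and 1404 TPM in Type D and 1575, 1146 and 1586 TPM in Type V (0.13 log2, SE 0.28, adjusted p = 0.823). Mdm2, the ubiquitin ligase that limits p53, was at 1041, 1251 and 1244 TPM against 715, 883 and 570 TPM. Its lines did not overlap, but the difference of 0.72 log2 was not called (SE 0.23, adjusted p = 0.132). An uncalled difference does not show that the types were equal.

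Of 19 death targets of p53, 1 was called higher in Type D and 1 lower (10.5%). Tnfrsf23, a TRAIL decoy receptor, was at 116, 183 and 141 TPM against 71.4, 47.5 and 71.6 TPM (1.19 log2, adjusted p = 0.0472). Its call was lost when any 1 of the 6 lines was left out. Bid, a proapoptotic BH3 protein, was at 56.9, 80.8 and 61.0 TPM against 157, 166 and 164 TPM (−1.30 log2, adjusted p = 0.0141). The BH3 gene Bbc3, which encodes PUMA, stood at 54.0, 51.1 and 53.6 TPM against 26.4, 53 and 46.6 TPM (0.38 log2, adjusted p = 0.432). Bax, an effector of mitochondrial permeabilization, was between 715 and 927 TPM in all 6 libraries (−0.08 log2, adjusted p = 0.811). Fas, the death receptor, was higher in every Type V line but varied widely there, at 110, 412 and 161 TPM against 59.5, 80.9 and 85.8 TPM (−1.37 log2, adjusted p = 0.16).

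Of 20 tested genes of metabolism and secretion, 2 were called higher, Gdf15 and Areg, and 1 lower, Tap1 (15%), with a median of −0.25 log2. Gdf15, a stress-induced cytokine of the TGF-beta family, was at 628, 1766 and 698 TPM in Type D and 13.8, 87.1 and 97.6 TPM in Type V (4.19 log2, SE 0.79, adjusted p = 0.0404). Areg, a ligand of the EGF receptor, was at 700, 1081 and 761 TPM against 62.5, 209 and 92.9 TPM (2.95 log2, adjusted p = 0.0207).

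**Figure D4:**
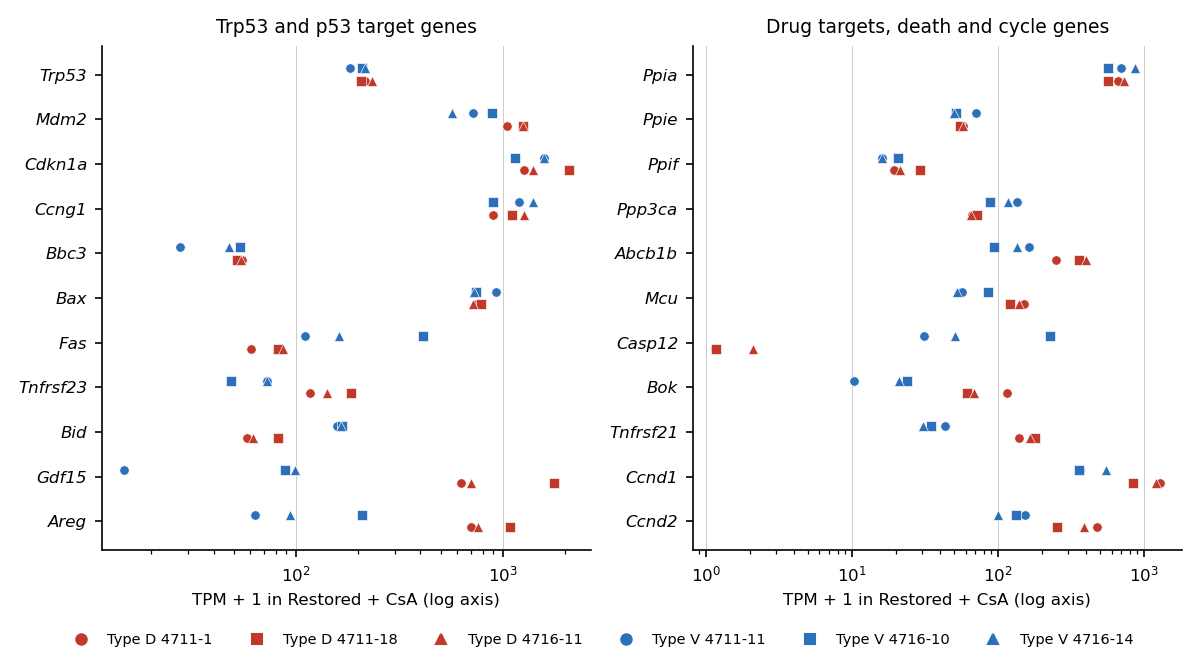
TPM + 1 (x axis, log scale) of Trp53 and p53 targets (left) and of cyclophilins, calcineurin, Abcb1b and genes of death and the cell cycle (right), with 1 symbol per Restored + CsA library, red for Type D and blue for Type V. The types overlap for Trp53, Cdkn1a, Bax, Ppia and Ppie and are apart for Gdf15, Areg, Bid, Tnfrsf21 and Casp12.

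The cyclophilins are the genes for the targets of the drug. Of 16 tested by limma 0 passed in either direction, against 4.24% of all genes, and 1 had an unadjusted p under 0.05, with differences from −0.61 to 0.47 log2 and a median of 0.02 log2. Ppia, which encodes cyclophilin A, was at 667, 562 and 728 TPM against 693, 568 and 861 TPM (−0.10 log2, SE 0.22, adjusted p = 0.809), and Ppie, which encodes cyclophilin E, was at 56.3, 54.0 and 56.7 TPM against 70.3, 50.6 and 49.1 TPM (−0.01 log2, SE 0.18, adjusted p = 0.99). Ppif, the mitochondrial cyclophilin of the permeability transition, was at 18.5, 28.2 and 20.4 TPM against 15.0, 19.7 and 15.2 TPM (0.40 log2, adjusted p = 0.36). Calcineurin and NFAT genes had 0 calls by limma among 14 tested and 2 at an unadjusted p under 0.05, with a median of −0.39 log2. Lists as short as these can give 0 calls at the 4.24% of all genes. The catalytic subunit gene Ppp3ca was at 65.3, 71.2 and 64.5 TPM against 133, 87.4 and 116 TPM (−0.71 log2, adjusted p = 0.0831). Of 11 drug transporter genes 1 was called (9.09%, against 4.24% of all genes). It was Abcb1b, an efflux pump of which CsA is a known substrate and inhibitor. Its levels were 250, 358 and 397 TPM against 162, 93.3 and 134 TPM (1.37 log2, adjusted p = 0.043). The call was lost when any 1 of the 6 lines was left out. The near-identical Abcb1a was at 42.9, 65.6 and 49.0 TPM against 1.16, 6.85 and 12.7 TPM (3.10 log2, adjusted p = 0.0523), and how reads were shared between the 2 copies is not known.

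Of 26 apoptosis genes, 2 were called higher and 1 lower, 11.5% against 4.24% of all genes tested. Tnfrsf21, a death domain receptor, was at 138, 177 and 164 TPM against 42.5, 33.6 and 29.9 TPM (2.15 log2, SE 0.18, adjusted p = 0.00527) and was called under every leave-out. Bok, a BCL2 family effector, was higher in Type D (2.18 log2), and Casp12, an inflammatory caspase linked to the endoplasmic reticulum, was lower, at 0.156, 0.17 and 1.12 TPM against 30.3, 227 and 49.9 TPM (−5.65 log2). Of 13 genes of necroptosis, pyroptosis and membrane rupture limma called 0, with 5 at an unadjusted p under 0.05. Ninj1, which mediates rupture of the plasma membrane, was at 157, 266 and 239 TPM against 119, 113 and 107 TPM (0.93 log2, adjusted p = 0.0662). Of 16 ferroptosis and iron genes it called 0, with 4 at an unadjusted p under 0.05. At the 4.24% called over all genes, 0 calls in lists this short say little about them. Slc7a11, the cystine importer, was at 122, 97.8 and 82.2 TPM against 10.8, 49.5 and 12.4 TPM (2.33 log2, adjusted p = 0.0695). Of 18 genes of the permeability transition and mitochondrial calcium 1 was called, a share of 5.56% near the 4.24% over all genes. It was the calcium uniporter gene Mcu, at 150, 120 and 139 TPM against 55.4, 85.0 and 51.5 TPM (1.11 log2, adjusted p = 0.046).

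Of 40 cell cycle genes 2 were called, both D-type cyclins, a share of 5% near the 4.24% over all genes. The median was 0.05 log2 in Restored + CsA, −0.40 log2 in Restored and −0.06 log2 in Control. For a change of the difference against Restored, 0 of the 40 were called, with or without pairing of the lines. Ccnd1 was at 1281, 835 and 1201 TPM against 362, 359 and 552 TPM (1.39 log2, adjusted p = 0.0412), and Ccnd2 differed by 1.51 log2 (adjusted p = 0.0378). The call of Ccnd1 was lost when any 1 of the 6 lines was left out. The proliferation marker Mki67 was at 16.3, 6.39 and 22.7 TPM against 21.7, 13.7 and 19.1 TPM (−0.39 log2, adjusted p = 0.644). Senescence genes gave 2 calls in each direction among 30 (13.3%). Cdkn2b, which encodes p15, was at 408, 271 and 336 TPM against 85.9, 108 and 181 TPM (1.48 log2, adjusted p = 0.0481). Timp1 (−2.86 log2) and Mmp14 (−2.28 log2) were higher in Type V. Cholesterol synthesis genes gave 3 calls toward Type D among 25 (12%). Msmo1, a sterol oxidase, was at 188, 126 and 128 TPM against 68.5, 68.6 and 61.5 TPM (1.12 log2, adjusted p = 0.0301). Of 19 ATF4 response genes 1 was called, Phgdh, a share of 5.26% near the 4.24% over all genes. Of 20 endoplasmic reticulum chaperone and XBP1 genes limma called 0, with 3 at an unadjusted p under 0.05. A list this short can give 0 calls at the share over all genes.

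The study's own gene groups were drawn from the Control and Restored libraries of these same lines, so their direction here is not independent evidence. Of 107 tested genes of its Type D signature 66 were called higher in Type D and 0 lower, and of 53 tested genes of its Type V signature 37 were called lower and 0 higher. Module 5 is a cluster of genes that changed with p53 restoration, and the study describes it as raised mainly in Type D. The study also reports that CsA abolished this induction in Type D. That is a change within a type, which was not tested here. The difference between types is another measure. Of the 101 tested genes of Module 5, 24 were called higher in Type D (23.8%) and 0 lower. All 3 Type D lines lay above all 3 Type V lines for 64 of them. The median difference was 1.05 log2 in Restored + CsA, 1.14 log2 in Restored and 0.48 log2 in Control. Prss22, a serine protease, was at 33.0, 103 and 80.9 TPM against 1.41, 2.60 and 1.25 TPM (4.62 log2, adjusted p = 0.00719). Csf2, the cytokine GM-CSF, was at 48.1, 201 and 112 TPM against 0, 6.82 and 1.48 TPM (5.27 log2, adjusted p = 0.0249). Procr, the protein C receptor, differed by 3.17 log2 and the kinase gene Mapk13 by 3.11 log2. In Modules 1, 2, 3, 4 and 6 the calls higher and lower were 0 and 2 of 247, 3 and 0 of 56, 0 and 4 of 231, 6 and 1 of 75, and 0 and 8 of 76. These were shares of 0.81%, 5.36%, 1.73%, 9.33% and 10.5%, against 4.24% of all genes.

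Whether the difference between types was particular to this state was examined in the Restored and Control libraries of the same lines. The types were not compared in Control + CsA. In Restored without CsA 490 genes were called (3.47%) and in Control 631 (4.47%). Of the 598 genes called in Restored + CsA, 381 were also called in Restored, which is 63.7% of the former and 77.8% of the latter. In Control 357 were also called, 59.7% of the Restored + CsA calls and 56.6% of those in Control. In each case 0 were called in the opposite direction, and 277 genes were called in all 3 states. These comparisons share no library, but the 6 lines are the same in each, so they are not independent of each other. Among the genes called higher in Type D the median difference was 2.27 log2 in Restored + CsA, 2.30 log2 in Restored and 2.17 log2 in Control. Among those called lower it was −2.43, −2.47 and −2.32 log2.

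The change of the difference itself was tested across all 24 libraries. Against Restored, limma called 0 genes (0%) without pairing of the lines, with 102 genes at an unadjusted p under 0.05. With the cell line as a replicate block, which removes the constant differences between lines, it called 1 gene (0.00709%), with 798 at an unadjusted p under 0.05. That gene was Bnip3, a mitochondrial BH3-like protein of the response to hypoxia. It was at 85.8, 123 and 524 TPM in Restored and 25.6, 50.7 and 166 TPM in Restored + CsA in the Type D lines, lower with CsA in each. Among Type V lines it was at 49.4, 110 and 38.1 TPM in Restored and 59.3, 130 and 40.4 TPM in Restored + CsA. The difference between types changed by −1.73 log2 with CsA (adjusted p = 0.0226 with the block and 1 without it).

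Against Control, 2 genes were called without the block (0.0142%), with 443 at an unadjusted p under 0.05, and 306 with it (2.17%), of which 128 moved toward Type D and 178 toward Type V. Mgp, the matrix Gla protein that inhibits calcification, moved toward Type D by 3.99 log2 (adjusted p = 1.31e-05). It was at 292, 210 and 253 TPM in the Type V Control libraries and at 17.5, 15.4 and 12.4 TPM with restoration and CsA, while in Type D it never exceeded 0.364 TPM in either state. The Type D minus Type V difference thus went from −7.84 to −3.85 log2 through the level in Type V. In Restored without CsA, Mgp was already at 9.95, 20.2 and 13.1 TPM in Type V. Gm15987 moved toward Type V (change −3.62 log2, adjusted p = 0.0105), from 0.147 to 0.657 TPM in all 6 Control libraries to 15.3, 34.6 and 35.8 TPM in Type V and 0.499, 2.04 and 2.28 TPM in Type D. The locus overlaps another gene on the opposite strand, so its reads are uncertain.

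Several genes with a large change against Control were called only once the lines were paired. Mmp14, a membrane-bound metalloproteinase, was at 4.95, 6.46 and 20.7 TPM in Control and 39.7, 46.7 and 76.0 TPM with both treatments in Type D, and at 214, 232 and 197 TPM and then 289, 221 and 265 TPM in Type V (2.16 log2, adjusted p = 0.000602 with the block and 0.81 without). In Restored without CsA, Mmp14 was at 25, 36.2 and 55.4 TPM in Type D and 322, 226 and 226 TPM in Type V. Wnt7a was at 3.26, 6.14 and 12.7 TPM in the Type D Control libraries and 69.1, 73.7 and 57.7 TPM with both treatments (2.55 log2, adjusted p = 0.00754 with the block and 1 without). In the Type D Restored libraries without CsA, Wnt7a was at 29.05, 56.7 and 33.6 TPM. Cdkn2b changed by 1.21 log2 (adjusted p = 0.00108 with the block and 1 without). In Restored without CsA it was at 338, 266 and 283 TPM in Type D and 81.9, 98.9 and 161 TPM in Type V. Phgdh, the first enzyme of serine synthesis, was at 401, 441 and 351 TPM in Type D and 467, 491 and 291 TPM in Type V in Control, where the types overlapped. In Restored without CsA it was at 490, 743 and 325 TPM in Type D and 185, 316 and 145.5 TPM in Type V, already with no overlap. With restoration and CsA it was at 695, 760 and 535 TPM and 220, 342 and 168 TPM, with no overlap (change 1.53 log2, adjusted p = 0.00169 with the block and 1 without).

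**Figure D5:**
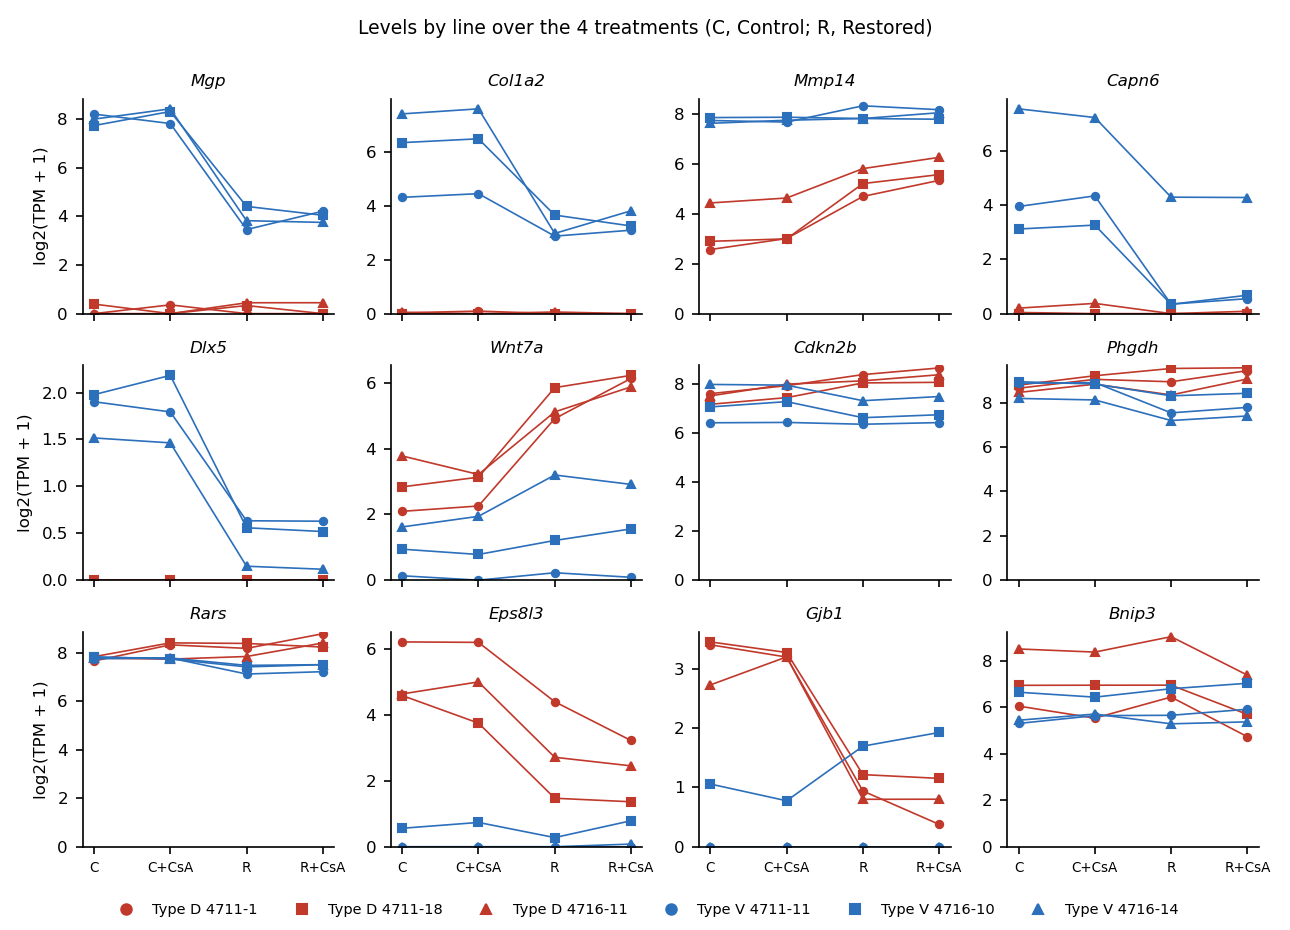
log2(TPM + 1) (y axis) of 12 genes in the 4 states Control, Control + CsA, Restored and Restored + CsA (x axis), with 1 line per cell line, red for Type D and blue for Type V. Mgp is lower in all 3 Type V lines with restoration, Wnt7a and Mmp14 are higher with it in the Type D lines, and Bnip3 is lower in Restored + CsA than in Restored in each Type D line.

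In Control the difference was under 0.5 log2 in size for 25 of the 598 genes called in Restored + CsA, and in Restored it was that small for 1. Apcdd1, a Wnt antagonist, was one of the 25, at 37.9, 54.1 and 55.6 TPM in Type D and 13.0, 13.0 and 16.1 TPM in Type V (1.73 log2, adjusted p = 0.0131), with −0.23 log2 in Control. Rars, the arginyl-tRNA synthetase, was at 445, 303 and 341 TPM against 149, 183 and 183 TPM (1.06 log2), and Atg7, an E1-like enzyme of autophagy, was at 134, 99.2 and 119 TPM against 42.3, 56.1 and 47.2 TPM (1.26 log2). Hilpda, a lipid droplet protein, was at 177, 444 and 222 TPM against 35.9, 91.5 and 39.6 TPM (2.33 log2, adjusted p = 0.046), and Svop, a transporter-like gene, went toward Type V (−1.90 log2, adjusted p = 0.0293). For Hilpda the change against Control was not called even with the block (2.0 log2, adjusted p = 0.0668).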

How the data were processed

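According to the study's methods, libraries were stranded and made from mRNA, with single-end reads. The authors deposited 1 table of TPM values for 25239 genes. The methods name kallisto or HISAT2, the submitters' processing notes name HISAT2, and both write mm10 and GRCm39 for the build, so the aligner and build behind the table are uncertain. Every library has the same TPM total, so values are relative to the other genes of a library and absolute RNA content cannot be read. Depth is unknown without counts, and count methods were not used.

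Groups were taken from the labels. The test covered the 14104 genes that reached a TPM of 1 in 3 or more of the 24 libraries. Differences between types on log2(TPM + 1), with a pseudocount of 1, were tested two-sided with limma 3.58.1 in R 4.3.3 (eBayes with trend), fitted to the 6 libraries compared, because each line gives 4 libraries and a fit to all 24 would count the spread between lines several times. Changes of the difference between states were fitted to all 24 libraries with 8 group means, without and with a replicate block for the cell line. That pairing comes from the labels: after removal of group means, libraries of the same line correlated with r of 0.599 to 0.929 over 36 pairs, whereas r was −0.675 to 0.0438 over 72 pairs of unlike lines within a type. Calls needed a Benjamini-Hochberg adjusted p under 0.05 over all tested genes and 1 log2. Single values were compared with exact permutation tests. In the 6 libraries 11960 to 12589 genes reached 1 TPM. Of 7200 genes with a median TPM of at least 20, 23 were listed at 0 in some library, so a value of 0 may be a failed estimate.

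The comparison, the members and the 41 gene lists of known biology were chosen with earlier results of these data known. Another 8 lists are the study's. The genes named are the 10 largest called differences in each direction with no overlap between types (predicted genes left out), up to 6 called genes per list and for Module 5, with other list members given as values, the 5 smallest p per direction among called changes of the difference, and up to 10 called genes with a Control difference under 0.5 log2. Epcam, Cdh1, Ptprc and other uncalled members were picked after their values were seen. Alternatives tried were quantile normalization, median-ratio scaling, a pseudocount of 0.1, a TPM minimum of 5 or no filter, fits to all 24 or to 12 libraries, the cell line as a block, the first part of the line name as a covariate, eBayes without trend, and each line left out. Promoters are from RefSeq on GRCm38.p6, matched by symbol. Plots used Python 3.11.15 with matplotlib 3.10.9. Chromatin data were not analysed here, and some genes are not reported here.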

Additional observations from a re-analysis of the deposited data

Results flagged for a closer look

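The results below are those in which the difference between types changed from another state to Restored + CsA by a test of that change. Each is the Type D minus Type V difference in Restored + CsA less that in the other state, from limma across 24 libraries.

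Without pairing of the lines, Mgp changed by 3.99 log2 against Control (adjusted p = 1.31e-05) and Gm15987 by −3.62 log2 (adjusted p = 0.0105). With the cell line as a replicate block, the same sizes had adjusted p of 5.7e-05 and 9.88e-05.

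With the block, 4 more genes with the smallest p moved toward Type D against Control. Capn6, a calpain-like gene, changed by 2.98 log2, and its level in Type V went from 14.4, 7.67 and 185 TPM to 0.466, 0.6 and 18.4 TPM, with at most 0.151 TPM in Type D. Tnfrsf26, a member of the TNF receptor family, changed by 1.74 log2, though its level differed widely among Type D lines, at 351, 3.05 and 223 TPM in Restored + CsA. Fhl3, a LIM domain gene, changed by 1.04 log2. Dlx5, a homeobox gene, changed by 1.38 log2 and was listed at 0 in all Type D libraries of both states, with 2.74, 2.94 and 1.86 TPM in the Type V Control libraries and at most 0.546 TPM with both treatments.

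In the other direction Eps8l3 changed by −2.90 log2, from 72.8, 23 and 23.8 TPM in the Type D Control libraries to 8.31, 1.57 and 4.47 TPM. Gjb1, which encodes connexin 32, changed by −2.71 log2, from 9.61, 9.97 and 5.63 TPM to 0.298, 1.22 and 0.743 TPM. Atp1b1, a subunit of the sodium pump, changed by −2.03 log2, and Adap1 by −1.77 log2. Without the block the adjusted p of these 8 genes ran from 0.472 to 1. None of the 8 was called for the change against Restored, with or without the block.

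Against Restored, Bnip3 changed by −1.73 log2 (adjusted p = 0.0226 with the block and 1 without it).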

How the results depend on the processing

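Of the 598 genes called between types in Restored + CsA, between 522 and 544 were among the calls with a pseudocount of 0.1 (650 called), a TPM minimum of 5 (649), quantile normalization (624), median-ratio scaling (580) or eBayes without trend (563). The count was 189 with no filter, 322 with the first part of the line name as a covariate, 1103 in a fit to all 24 libraries and 1389 with the cell line as a random replicate block there. The corresponding counts were 129, 205, 1331 and 1589 in Restored, and 221, 243, 1246 and 1587 in Control. Each line left out in turn gave 77 to 963 calls in Restored + CsA, 14 to 705 in Restored and 70 to 748 in Control, with the lowest count without 4711-1 and the highest without 4716-10 in each state. For the change against Restored, 0 genes were called, 1 with the replicate block, and 0 to 1 over the leave-outs. For the change against Control, 2 were called, 306 with the paired fit, 0 with a pseudocount of 0.1, 1 in a fit to the 12 libraries of both states, and 1 to 13 over the leave-outs. The causes of these shifts were not tested, except that a leave-out holds fewer lines. Comparisons between types in a single state cannot take the line as a fixed block, since each line belongs to 1 type.

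Of the 110 called genes that the rule for naming selected, 42 were called with no filter and 67 with the line name covariate. Without a line they numbered 25 without 4711-1, 53 without 4711-18, 28 without 4716-11, 66 without 4711-11, 93 without 4716-10 and 45 without 4716-14. None of the 110 changed direction in any of these alternatives. TPM carries no depth, so the precision of low values, at or below 1 TPM, cannot be given, and the log2 differences of genes near 0 in either type depend on the pseudocount.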

Other observations

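Myc, a proto-oncogene, was higher in every Type D line than in every Type V line in Restored + CsA, at 268, 162 and 293 TPM against 144, 115 and 136 TPM (0.83 log2, adjusted p = 0.121). Insm1, a zinc finger factor of neuroendocrine cells, was at 0.713, 0.146 and 1.63 TPM in Type D and at 31.9, 2.65 and 5.25 TPM in Type V, where line 4711-11 stood out (−2.40 log2, adjusted p = 0.159). Uchl1, a deubiquitinase of neuronal and neuroendocrine cells, was the 1 neuroendocrine gene called, at 0.237, 0 and 0.393 TPM against 8.33, 5.74 and 3.12 TPM (−2.41 log2, adjusted p = 0.022).

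Some genes varied more within a type than between types. Cxcl1, a neutrophil chemokine, was at 103, 400 and 318 TPM in Type D and at 13.3, 1650 and 39.6 TPM in Type V. Nkx2-1, a lung lineage factor, was at 0.143, 54.6 and 12 TPM in Type D and at 11.0, 3.87 and 5.97 TPM in Type V. Pdx1, a factor of pancreas and duodenum, was at 80.8, 0.328 and 44.2 TPM in Type D and at 0, 3.64 and 0 TPM in Type V. Gsdmd, the pore-forming gasdermin D, was at 194, 240 and 241 TPM in Type D, and among Type V lines it was at 14.9 and 40.8 TPM in 4711-11 and 4716-14 and at 216 TPM in 4716-10. None of these 4 genes was called.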
